A study of Mus musculus with 33 samples.

Results

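Tbx2, Tbx3, Tbx5, Vax1, Vax2, Efnb1, Efnb2, Ephb2 and Ephb3 are genes that set or read the dorsoventral axis of the vertebrate retina, and their RNA was followed in cultured mouse retinal progenitor cells. All 9 were found by gene symbol among the 47729 genes of the count tables, and all 9 passed the filter on low counts that 18150 genes passed. The cells came from C57BL/6J retina at embryonic day 14, and no genetic modification is given in the labels. At day 0 they were untreated, cone primed with COCO protein, a secreted protein that blocks ligands of the BMP, Wnt and TGF-beta families, or rod primed with taurine and retinoic acid, and at days 5, 12, 21 and 35 they were in cone induction with COCO protein or rod induction with taurine and retinoic acid. Each of the 11 groups had 3 libraries, 33 in all, and the labels do not describe the culture or say whether the 3 came from separate cultures or animals, so p-values measure only the spread between these samples.

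The dorsal retina is specified by BMP signalling, which switches on T-box transcription factors, among them Tbx5, Tbx2 and Tbx3. The ventral retina and optic stalk express the homeobox factors Vax1 and Vax2, which depend on signals such as Sonic hedgehog, and retinoic acid is made at both poles by different enzymes. The result is read by growing axons through a graded pair of membrane proteins: ephrin-B ligands (Efnb1, Efnb2), high dorsally, and EphB receptors (Ephb2, Ephb3), high ventrally.

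In coordinates of GRCm38, Tbx2 lies at chr11:85832551-85841948 and its relatives Tbx3 and Tbx5 lie near each other at chr5:119670669-119684724 and chr5:119832668-119885219, all on the plus strand. Vax1 lies at chr19:59166187-59170056 on the minus strand and Vax2 at chr6:83711264-83738313 on the plus strand. The ligand genes are Efnb1 at chrX:99136130-99148991 (plus strand) and Efnb2 at chr8:8617434-8661242 (minus strand). The receptor genes are Ephb2 at chr4:136647539-136835988 (minus strand) and Ephb3 at chr16:21204755-21223305 (plus strand). All 9 are protein-coding genes at the same positions in GENCODE M21.

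The 250 bases upstream of the RefSeq start are shown for 3 members that the results turn on: Efnb2 and Ephb2, which rose together on rod priming, and Vax1, which was lower in rod than in cone conditions. RefSeq windows were found for 5 of the 9 members (also Ephb3 and Efnb1). They are read 5′ to 3′ on the gene's strand in GRCm38.p6, at chr8:8661243-8661492, chr4:136836013-136836262 and chr19:59170398-59170647.
Efnb2: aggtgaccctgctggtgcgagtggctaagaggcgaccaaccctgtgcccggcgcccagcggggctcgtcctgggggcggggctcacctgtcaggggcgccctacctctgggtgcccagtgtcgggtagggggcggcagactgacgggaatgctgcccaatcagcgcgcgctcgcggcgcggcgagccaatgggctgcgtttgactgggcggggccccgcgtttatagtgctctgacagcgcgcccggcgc
Ephb2: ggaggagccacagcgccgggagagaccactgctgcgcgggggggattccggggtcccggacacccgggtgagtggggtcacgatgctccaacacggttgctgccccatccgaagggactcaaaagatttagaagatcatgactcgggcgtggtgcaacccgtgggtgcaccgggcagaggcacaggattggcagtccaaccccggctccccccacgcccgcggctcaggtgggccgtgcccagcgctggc
Vax1: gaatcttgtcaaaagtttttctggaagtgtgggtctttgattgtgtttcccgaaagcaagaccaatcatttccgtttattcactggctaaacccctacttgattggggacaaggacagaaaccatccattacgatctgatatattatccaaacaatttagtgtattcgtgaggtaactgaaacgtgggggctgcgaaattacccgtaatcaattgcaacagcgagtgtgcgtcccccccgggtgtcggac
The Efnb2 and Ephb2 windows were 72.0% and 68.4% G or C, and the Vax1 window 44.8%. None of the 5 windows held AGGTCA, a form of the hexamer bound by retinoic acid receptors, on either strand. It was found in 14.0% of 32851 RefSeq windows of the same length. None held GGTGTGA, the core of T-box sites (3.33% of all windows), or TAATTA, a homeodomain core (4.84%). No letters are in capitals because no match was found, and other forms of these sites were not searched for. The absence of these exact letters says nothing of other forms in the window or of binding elsewhere.

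The libraries held 7511837 to 19166442 counts in genes (median 12985662), so a level of 3 counts, used as the floor, came to 0.174 to 0.407 CPM (reads of a gene relative to the TMM-scaled library size). Intervals and floors cover counting error only. The retinal progenitor list of 10 markers summed to 815 to 1532 CPM over all groups, so the labelled cell type was present in its markers throughout. Markers shared by cones and rods summed to 811 to 1504 CPM in the 9 day 0 libraries, and to 8.41 to 38.4 CPM at day 35. In rod day 12 replicate 2 those photoreceptor markers summed to 811 CPM against 88.0 and 159 CPM in the other rod day 12 libraries, and several members stood apart there as well, as given below. Müller glia markers summed to 433 to 577 CPM in the untreated and cone primed libraries and to 1104 to 1389.6 CPM in the rod primed ones, and at day 35 to 3789.5 to 4656 CPM in cone and 4282 to 7069.7 CPM in rod.

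Reads per length put the members in an order. In untreated cells Tbx2 (16.0 ± 2.80 CPM per kb of exon, SD, n = 3), Efnb2 (15.6 ± 1.38) and Ephb2 (15.0 ± 0.638) were the most abundant and lay within their spread of each other. Tbx3 followed at 8.67 ± 1.59 and Vax2 at 6.52 ± 0.739 CPM per kb, a gap about the size of their SDs. Efnb1 (3.29 ± 0.522) and Ephb3 (3.29 ± 0.310) were level with each other, and Vax1 (1.40 ± 1.28) and Tbx5 (0.973 ± 0.607) were lowest and overlapped. At day 35 in the rod condition the order opened with Tbx2 at 48.9 ± 4.64, Efnb2 at 47.4 ± 12.9 and Ephb2 at 36.1 ± 6.47 CPM per kb and ended with Vax1 at 0.189 ± 0.141. At day 35 in the cone condition Efnb2 led at 40.5 ± 7.67, Ephb2 and Tbx2 followed at 18.6 ± 4.13 and 13.8 ± 2.84, and Tbx3 had dropped to 4.00 ± 1.08 CPM per kb. The deposited TPM gave another order in untreated cells, led by Tbx3 at 3.18 ± 0.398 TPM and then Vax1 at 2.40 ± 2.09 TPM. It also listed Tbx5 at 0 in 20, Vax1 in 17, Efnb1 in 16 and Ephb3 in 14 of the 33 libraries, so counts were used for all that follows.

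**Figure D1:**
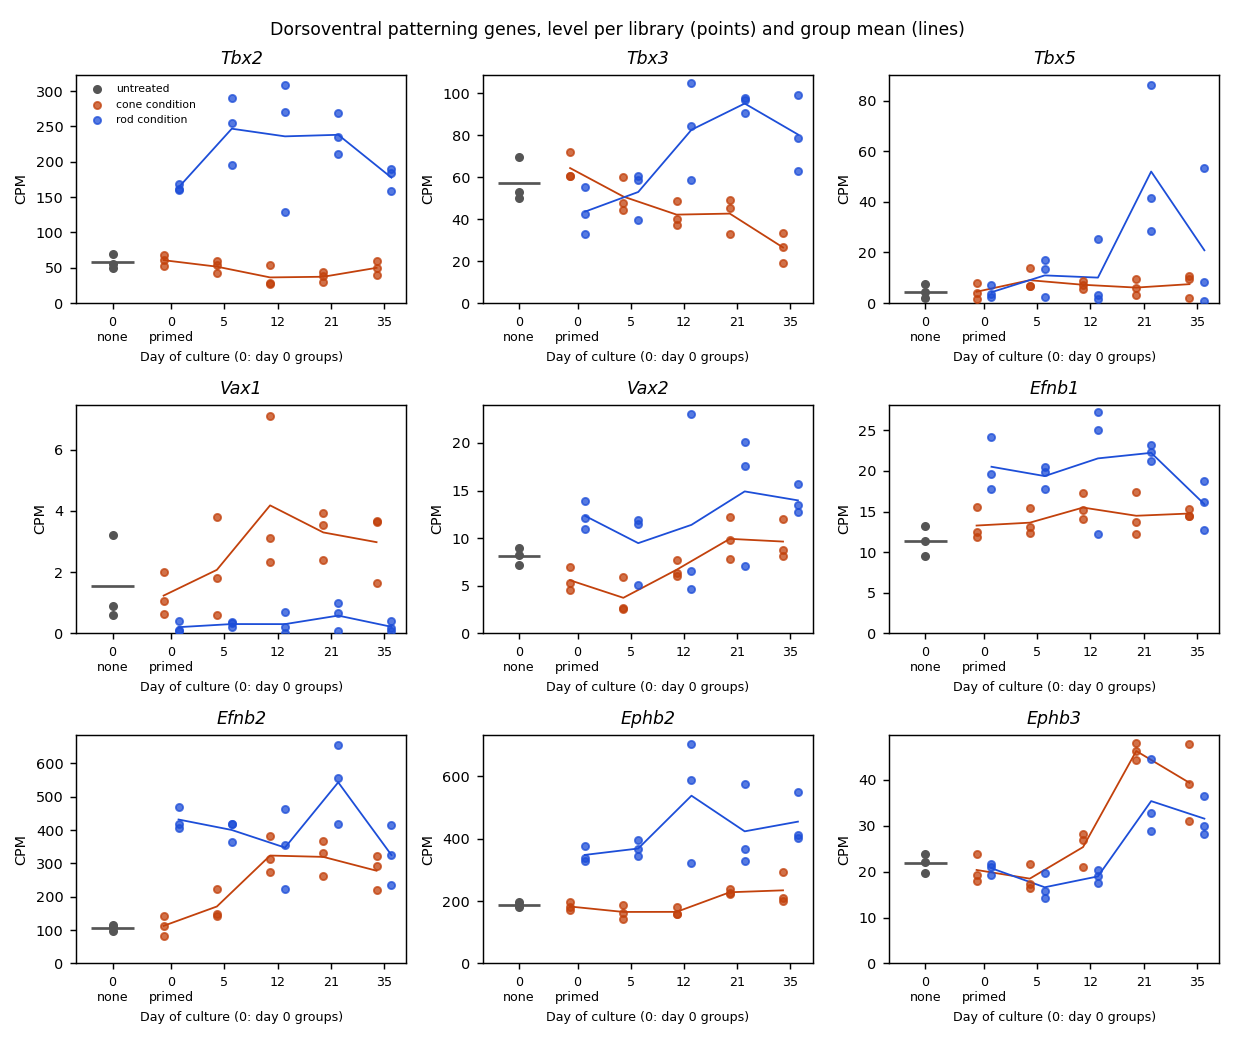
Level of each member in every library in CPM (y axis, linear, own range for each gene) against day of culture (x axis); points are libraries, orange cone, blue rod, grey untreated, and lines join group means. Tbx2 and Ephb2 lie higher in every rod library than in every cone library of the same day, Vax1 lies lower in every rod group, and Tbx3 is higher in the cone libraries at day 0, overlaps at day 5 and is higher in the rod libraries from day 12.

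The first question was what priming alone did to these genes at day 0. No member was called after cone priming: 0 of the 9 members were called with edgeR's quasi-likelihood test at an adjusted p under 0.05, 0 had an unadjusted p under 0.05, and the test called 0% of all genes (the other count and TPM tests also called 0 of the 9). Rod priming raised 4 members and called none lower: the dorsal factor Tbx2, both ephrin-B ligands and the ventral receptor gene Ephb2. The test called 10.3% of all genes, 6.71% as higher in rod primed cells. The median log2 fold change was 0.61 over the members and 0 over all genes tested. On the deposited TPM, where limma called far fewer genes of any kind, 0 of the 9 were called on rod priming. The limma adjusted p was 0.293 for Tbx2, 0.502 for Efnb1, 0.0546 for Efnb2 and 0.768 for Ephb2.

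Tbx2, a T-box repressor, stood at 69.3, 55.3 and 49.6 CPM in the untreated libraries, at 68.6, 53.0 and 60.4 CPM in the cone primed ones and at 160.3, 169 and 162 CPM in the rod primed ones. All 3 rod primed libraries lay above all others. The mean was 2.82-fold that of untreated cells, a fitted log2 fold change of 1.5 ± 0.26 (SE; edgeR adjusted p = 0.000288). Tbx3, its close relative, was not called: it stood at 69.5, 52.8 and 50 CPM untreated and at 55.2, 33.0 and 42.5 CPM rod primed, with overlapping groups and a log2 fold change of -0.40 ± 0.23 (edgeR adjusted p = 0.296). Tbx5, the most dorsally restricted of the T-box members, was low and scattered, at 1.90 to 7.55 CPM untreated and 2.32 to 7.05 CPM rod primed.

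Efnb2, a transmembrane ligand for EphB receptors, had the largest rise among the called members. It stood at 115, 110.1 and 96.6 CPM in the untreated, at 112, 143 and 82.7 CPM in the cone primed and at 419, 406 and 469 CPM in the rod primed libraries. The rod primed libraries were 4.02-fold higher on average and did not overlap the others (log2 fold change 2.01 ± 0.25, edgeR adjusted p = 3.14e-06). Efnb1, the ligand encoded on the X chromosome, rose from 13.2, 11.3 and 9.58 CPM to 24.1, 17.8 and 19.6 CPM, again without overlap (0.86 ± 0.21, adjusted p = 0.00877).

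Ephb2, a receptor tyrosine kinase that binds these ligands, stood at 188, 181 and 197 CPM untreated and at 327, 378 and 339 CPM rod primed, so each rod primed library was above each untreated one (log2 fold change 0.88 ± 0.21, edgeR adjusted p = 0.00606). Ephb3, the other EphB receptor of the set, stood at 22.1, 19.7 and 23.8 CPM untreated and 21.7, 19.3 and 21.1 CPM rod primed (-0.08 ± 0.17, adjusted p = 0.835). The ventral factors were not called in either direction. Vax2 stood at 8.19, 7.14 and 8.96 CPM untreated and at 11.0, 13.9 and 12.1 CPM rod primed, groups that did not overlap, with a log2 fold change of 0.61 ± 0.43 (edgeR adjusted p = 0.42). Vax1 had 47 reads in all in the untreated libraries and 5 in the rod primed ones, a rate 7.12-fold higher untreated (95% interval 2.84 to 22.9, exact, from counting error only), and its adjusted p was 0.059.

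**Figure D2:**
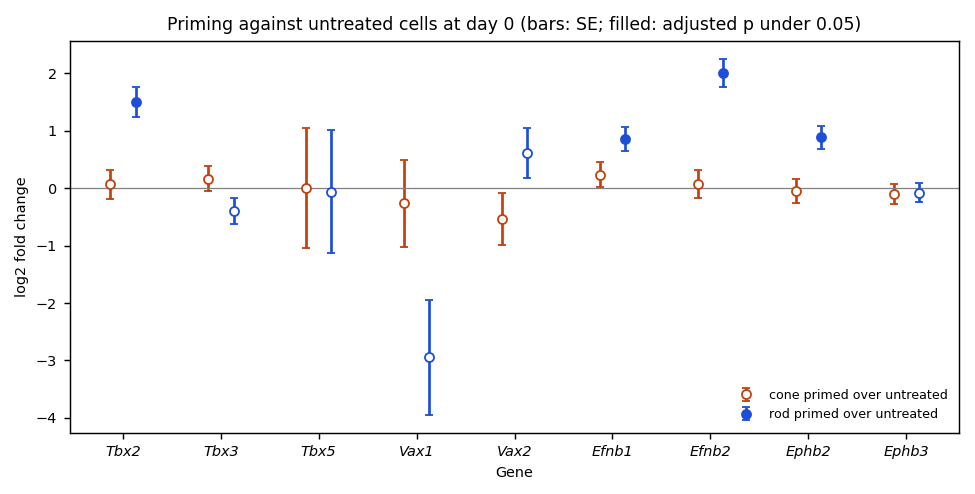
Fitted log2 fold change (y axis) of each member (x axis) in cone primed (orange) and rod primed (blue) cells over untreated cells at day 0; bars are SE and filled points have an adjusted p under 0.05. Filled points are Tbx2, Efnb1, Efnb2 and Ephb2 in rod primed cells, from 0.86 to 2.01, and no cone primed point is filled.

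The second question was how the cone and rod conditions differed on each day. Averaged over days 5 to 35, all 9 members were called: 7 were lower in cone, and Vax1 and Ephb3 were higher. That test called 27.8% of all genes, 12.2% as lower in cone, so a call in it was common, and the members' median log2 fold change of -0.81 stood beside 0.01 over all genes. Day by day the calls were fewer. At day 0 they were Tbx2, Efnb2 and Ephb2, all lower in cone primed cells, where 7.27% of all genes were called and 4.77% were lower. This day 0 comparison uses the same rod primed libraries as the comparison with untreated cells, and the median over the members was -0.62.

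At day 5 there were 4 calls, Vax1 higher and Tbx2, Efnb2 and Ephb2 lower in cone, against 9.28% of all genes called and 5.8% lower. At day 12 there were 4, Vax1 higher and Tbx2, Tbx3 and Ephb2 lower, against 10.1% called and 4.12% lower. At day 21 there were 6, Vax1 higher and Tbx2, Tbx3, Tbx5, Efnb2 and Ephb2 lower, against 9% called and 3.14% lower. At day 35 there were 4, the same genes as at day 12, against 12.3% called and 4.51% lower. On the deposited TPM, limma called far fewer genes of any kind. Its calls were 1 member on each of days 0, 5, 12 and 21, 0 on day 35 and 5 for the average. RNA from a whole culture cannot tell fewer cells of a type from less RNA per cell.

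Tbx2 was lower in cone on every day. Its 3 cone libraries stood at 42.1, 53.4 and 59.1 CPM at day 5 and its rod libraries at 291, 195 and 255 CPM. At day 12 they stood at 28.2, 53.5 and 27.1 CPM in cone and 270.3, 128 and 309 CPM in rod, and at day 21 at 37.7, 43.9 and 30.1 CPM in cone and 210.4, 269 and 235 CPM in rod. At day 35 the cone libraries stood at 39.5, 50 and 60.1 CPM and the rod libraries at 184, 190.2 and 158 CPM. The lowest rod library, 128 CPM, was replicate 2 of day 12, and even it was above every cone library.

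The mean Tbx2 level was higher in rod by 4.79-fold, 6.50-fold, 6.4-fold and 3.56-fold on days 5, 12, 21 and 35. Fitted log2 fold changes (cone over rod) were -2.26 ± 0.26, -2.70 ± 0.27, -2.68 ± 0.27 and -1.83 ± 0.26 on those days and -2.37 ± 0.13 on average (edgeR adjusted p = 3.35e-13 for the average). Whether this difference changed with day was not called (edgeR F test over 5 days, adjusted p = 0.0546). Without rod day 12 replicate 2 Tbx2 was still called lower in cone at day 12.

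Tbx3, a T-box factor that overlaps Tbx2 in dorsal retina, changed order between the conditions. At day 0 it stood at 72.1, 60.5 and 60.4 CPM in cone primed and 55.2, 33.0 and 42.5 CPM in rod primed cells, higher in cone without overlap but not called (log2 fold change 0.56 ± 0.23, edgeR adjusted p = 0.143). At day 5 it stood at 47.9, 44.4 and 60.0 CPM in cone and 60.5, 39.4 and 58.9 CPM in rod, and the groups overlapped (log2 fold change -0.06 ± 0.22, edgeR adjusted p = 0.915). At day 12 the cone libraries held 37.4, 40.2 and 48.8 CPM and the rod libraries 58.8, 105 and 84.3 CPM, without overlap. At day 21 the values were 33.1, 45.5 and 49.3 CPM in cone and 97.0, 90.7 and 97.6 CPM in rod, and at day 35 they were 19.3, 33.6 and 26.6 CPM in cone and 63.0, 99.1 and 78.9 CPM in rod. The fitted log2 fold changes were -0.97 ± 0.23, -1.15 ± 0.23 and -1.60 ± 0.23 on days 12, 21 and 35, larger in size on each later day. Each was called (day 12 not with only its own libraries fitted, edgeR adjusted p = 0.0852). The steps between these days were not tested on their own. The change of the cone over rod difference with day was called for Tbx3 (edgeR F test, adjusted p = 0.000323), a test that called 9.22% of all genes and 2 of the 9 members. Without replicate 3 of all groups the adjusted p was 0.160.

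Tbx3 rose in rod and fell in cone. Over the rod primed cells it was higher by 0.93 ± 0.23, 1.13 ± 0.23 and 0.89 ± 0.23 (log2) at days 12, 21 and 35 of the rod condition, each called. Over the cone primed cells it fell by 0.61, 0.59 and 1.28 at the same days of the cone condition, each called. The fall to day 35 was called without any 1 of the libraries compared, while that to day 12 was lost without cone primed replicate 1 or cone day 12 replicate 1 or 2 (edgeR adjusted p 0.0753 to 0.106) and that to day 21 without cone primed replicate 1 (0.0804) or cone day 21 replicate 1 (0.122).

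Tbx5, which acts upstream of ephrin-B ligands in the dorsal retina, was scattered. In the rod condition it stood at 28.5, 86.0 and 41.3 CPM at day 21, above the cone libraries at 5.90, 9.33 and 3.11 CPM. At day 35 the rod libraries were 0.850, 53.3 and 8.39 CPM, so a single library was high, and the cone libraries lay among them at 2.05, 9.70 and 10.7 CPM. The day 21 difference was -3.09 ± 0.99 (log2; edgeR adjusted p = 0.0483) and was lost when any of 5 of the 6 libraries was left out (adjusted p 0.0798 to 0.173). The average over days, -1.32 ± 0.47 (adjusted p = 0.0379), was lost without any of the 3 replicate numbers (adjusted p 0.0545 to 0.286). Its rise from rod primed cells to day 21, 3.63 ± 1.03 (adjusted p = 0.00478), was called.

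**Figure D3:**
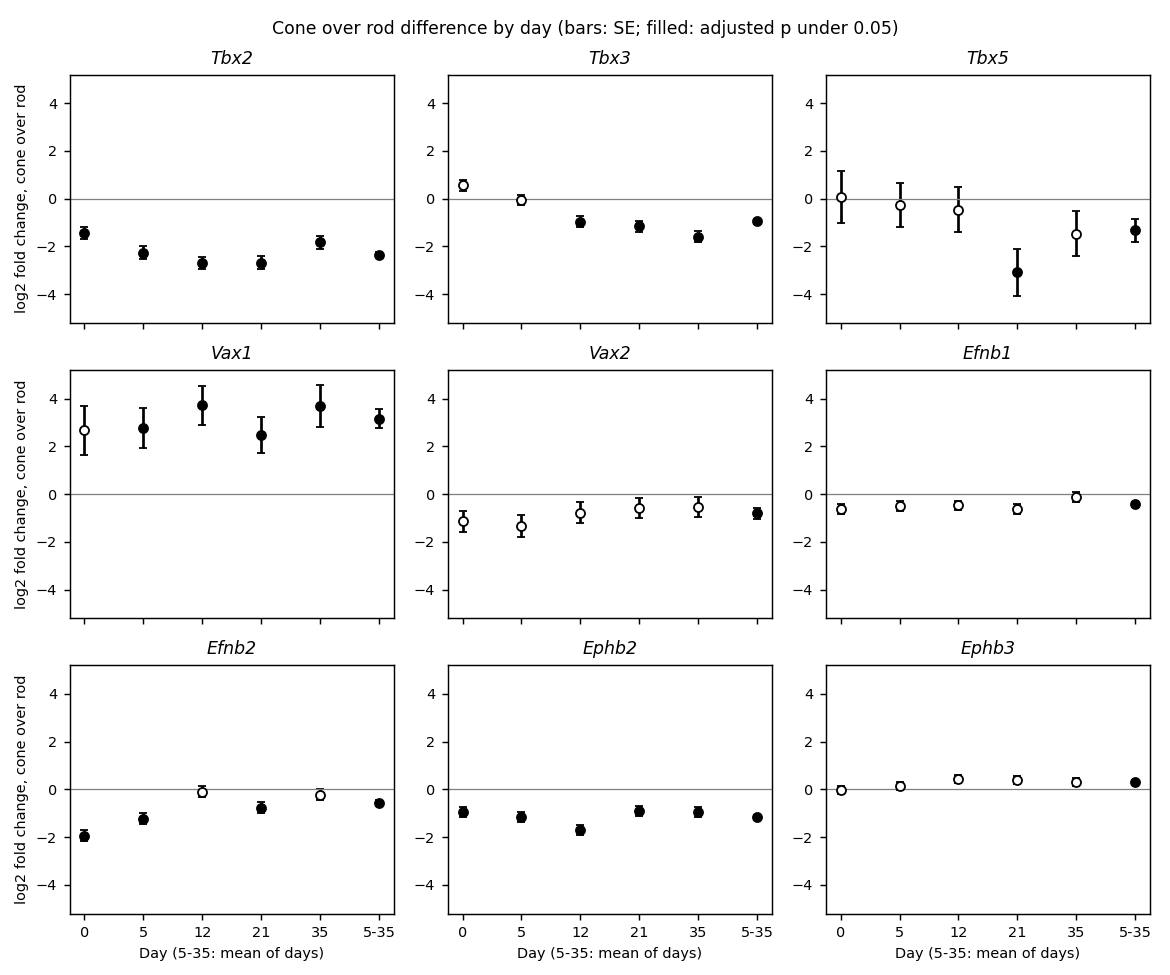
Fitted log2 fold change of cone over rod (y axis) for each member at days 0 to 35 and for the mean of days 5 to 35 (x axis); bars are SE and filled points have an adjusted p under 0.05. Tbx2 and Ephb2 are filled below 0 on every day, Tbx3 moves from near 0 at day 5 to -1.60 at day 35, Efnb2 moves from -1.93 at day 0 towards 0, and Vax1 lies above 0 on fits of few reads.

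The ligand gene Efnb2 went the opposite way to Tbx3: its difference was largest at day 0 and smaller later. At day 5 the cone libraries stood at 142, 148 and 222 CPM and the rod libraries at 417, 365 and 418 CPM, without overlap. At day 12 they stood at 276, 313 and 381 CPM in cone and 355, 225 and 463 CPM in rod, the 225 in replicate 2, and the groups overlapped. At day 21 the cone libraries held 367, 331 and 261 CPM and the rod libraries 417, 656 and 556 CPM, and at day 35 they held 219.7, 322 and 292 CPM and 237, 414 and 324 CPM, overlapping again. The log2 fold changes from day 0 to day 35 were -1.93 ± 0.25, -1.23 ± 0.24, -0.10 ± 0.24, -0.77 ± 0.24 and -0.23 ± 0.24.

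The change of the Efnb2 difference with day was called (edgeR F test, adjusted p = 0.00285), and was not called without replicate 1 (0.0567) or replicate 3 (0.163). The larger steps with time were in cone: over cone primed cells Efnb2 was higher by 1.52 ± 0.24 at day 12, 1.5 ± 0.24 at day 21 and 1.30 ± 0.24 at day 35, each called. Over rod primed cells it was not called on any day (-0.41 ± 0.24 to 0.33 ± 0.24). The day 21 difference between the conditions (edgeR adjusted p = 0.0419) was lost without cone replicate 2, cone replicate 3, rod replicate 2 or rod replicate 3 of that day (0.0808 to 0.190). Efnb1 stayed between 9.58 and 27.3 CPM throughout, was not called on any single day, and averaged -0.43 ± 0.10 over days 5 to 35 (adjusted p = 0.00222), a call lost without replicate 3 (0.1004). Rod day 12 replicate 2 held 12.3 CPM of Efnb1, against 27.3 and 25.1 CPM in the others of its group.

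Of the receptors, Ephb2 was lower in cone on every day. Its cone libraries stood at 189, 163 and 144 CPM at day 5 and its rod libraries at 343, 367 and 396 CPM. At day 12 the values were 158, 157 and 181 CPM in cone and 705, 322 and 587 CPM in rod, the 322 again in replicate 2. At day 21 they were 225, 222 and 238 CPM in cone and 576, 327 and 368 CPM in rod, and at day 35 they were 209.5, 294 and 199 CPM in cone and 549, 403 and 412 CPM in rod. No rod library overlapped the cone libraries of its day. Log2 fold changes of -1.16 ± 0.21, -1.70 ± 0.21, -0.89 ± 0.21 and -0.96 ± 0.21 averaged -1.18 ± 0.10 (edgeR adjusted p = 1.76e-09). The day 21 call was lost without rod day 21 replicate 1 (0.0646).

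Ephb3 went the other way by a small amount: it averaged 0.32 ± 0.08 higher in cone (edgeR adjusted p = 0.00511) and was not called on any single day. That average was lost without replicate 1 (0.242) or replicate 3 (0.0910). More of its movement was with time. It rose in cone from 18.0, 23.8 and 19.3 CPM when primed to 44.3, 46.3 and 48.0 CPM at day 21, without overlap (1.18 ± 0.17, adjusted p = 1.71e-06). In rod it rose from 21.7, 19.3 and 21.1 CPM to 28.8, 44.4 and 32.8 CPM (0.77 ± 0.17, adjusted p = 0.000481). Both conditions were still above their primed cells at day 35 (0.95 ± 0.17 in cone and 0.61 ± 0.17 in rod).

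Vax1, the homeobox factor of the optic stalk and ventral eye, was the only member called higher in cone on single days. Its levels were low throughout and lay near the floor in rod, with at most 13 counts in any rod library. Vax1 passed the filter on low counts mainly through cone and untreated libraries, where it was higher. Its calls are therefore not separate from that filter. It stood at 3.81, 0.608 and 1.80 CPM in cone and 0.337, 0.357 and 0.208 CPM in rod at day 5. At day 12 it stood at 7.11, 3.11 and 2.32 CPM in cone and at 0.214, 0.682 and 0 CPM in rod. At day 21 the values were 3.94, 2.40 and 3.55 CPM in cone and 1.00, 0.0772 and 0.652 CPM in rod, and at day 35 they were 3.67, 1.63 and 3.63 CPM in cone and 0.0850, 0.162 and 0.387 CPM in rod. On each day every cone library was above every rod library.

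Because no rod group held more than 24 Vax1 reads in all, ratios of summed reads are given with exact 95% counting intervals in place of fitted folds. Vax1 was higher in cone by 6.67-fold (2.60 to 21.8) on day 0, 6.83-fold (3.66 to 14.1) on day 5 and 12.5-fold (7.04 to 24.0) on day 12. It was higher by 5.55-fold (3.54 to 9.04) on day 21 and 13.2-fold (6.69 to 29.6) on day 35. The intervals overlap one another. With edgeR the adjusted p was 0.118, 0.0375, 0.00319, 0.0391 and 0.00461 on days 0, 5, 12, 21 and 35 and 1.22e-06 for the average. The day 5 call was lost when any of 5 of the 6 libraries was left out (0.0579 to 0.213), as was the day 21 call (0.0517 to 0.164), while the calls on days 12 and 35 held without any 1 library. Fitted with only its own libraries, day 12 was not called (0.103).

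Vax2, the homeobox factor of the ventral retina, pointed the other way from Vax1. It averaged -0.81 ± 0.22 lower in cone (edgeR adjusted p = 0.00539) and was called on no single day. At day 5 it stood at 5.95, 2.68 and 2.56 CPM in cone and 11.5, 5.08 and 11.9 CPM in rod, with overlap. At day 35 it stood at 12.0, 8.16 and 8.72 CPM in cone and 13.4, 12.8 and 15.7 CPM in rod, without overlap. Rod day 12 replicate 2 held the highest Vax2 value of all libraries, 23.0 CPM, against 6.50 and 4.69 CPM in the others of its group. The average was lost without replicate 3 (0.121).

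Antisense and overlapping genes share sequence with 3 members, and whether reads were counted by strand is not given in the sources used here, so reads of the partners cannot be told apart. Vax2os, antisense to Vax2, differed more than Vax2 itself: it averaged 32.9 ± 17.0 CPM in rod and 3.72 ± 3.53 CPM in cone at day 5 (SD, n = 3), and 43.9 ± 7.94 CPM in rod and 7.49 ± 1.39 CPM in cone at day 35. Its mean log2 fold change over days was -2.75 ± 0.27 (edgeR adjusted p = 1.66e-08), and it rose on rod priming (2.08 ± 0.59, adjusted p = 0.0231). Tbx3os1, antisense to Tbx3, averaged 6.54 ± 1.56 CPM in rod and 0.838 ± 0.220 CPM in cone at day 35, and -2.21 ± 0.24 over days (adjusted p = 8.95e-08). Efnb2 overlaps 3 transcripts of uncertain coding status, the largest with up to 1889 counts in a library.

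Members were also compared with their primed cells over time. Over cone primed cells, 0 members were called at day 5 with edgeR (1 had an unadjusted p under 0.05), 4 at day 12, 4 at day 21 and 3 at day 35, where 22.3%, 48.4%, 52.6% and 57.7% of all genes were called, so 4 of 9 at day 12 was near the share of all genes. At day 12 Efnb2 and Vax1 rose and Tbx2 and Tbx3 fell. At day 21 Efnb2 and Ephb3 rose and Tbx2 and Tbx3 fell, and at day 35 Efnb2 and Ephb3 rose and Tbx3 fell. Tbx2 fell by 0.73 and 0.70 (log2) at days 12 and 21 and stood at -0.28 ± 0.25 at day 35. The Tbx2 fall was lost at day 12 without cone primed replicate 1 or cone day 12 replicate 1 or 3 (edgeR adjusted p 0.0556 to 0.115) and at day 21 without cone primed replicate 1 (0.0569) or cone day 21 replicate 3 (0.110). The day 12 call of Vax1 was lost without cone primed replicate 2 or 3 or cone day 12 replicate 1 (0.121 to 0.239), the last of which left 1 call, and the loss of cone primed replicate 1 left 2 calls at day 12 and 2 at day 21.

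Over rod primed cells, 0 members were called at day 5 with edgeR (1 had an unadjusted p under 0.05), 2 at day 12, 3 at day 21 and 2 at day 35, where 17.5%, 42.4%, 50.8% and 55.6% of all genes were called. Tbx3 rose on each of the 3 later days, joined by Ephb2 at day 12 (0.63 ± 0.20), Tbx5 and Ephb3 at day 21 and Ephb3 at day 35. No member was called lower. Without rod day 12 replicate 2, Tbx2 (0.79, edgeR adjusted p = 0.00546) and Vax2 (-1.18, 0.0139) were also called at day 12. Ephb2 was not called at day 12 without rod primed replicate 1, rod day 12 replicate 1 or rod day 12 replicate 3 (0.0578 to 0.165), which left 1 call.

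Across the 11 group means of log2 CPM, which share libraries and depth, Tbx2 and Ephb2 had the highest correlation of any pair of members (Pearson r = 0.912) and Tbx2 and Vax1 the lowest (r = -0.941). Vax1 had a mean log2 CPM of 0.0568, below the minimum of 1 set for the genes compared, so its correlations rest on few reads. Among 11909 genes compared, those most like Tbx2 included Cyp26a1, a retinoic acid degrading enzyme (0.957), and Fam172a (0.948). Efnb2 was most like Zic5 (0.968), a zinc finger factor, and Rarb (0.955), a retinoic acid receptor. Ephb2 was most like Isoc1 (0.9504), Pou3f4 (0.943) and Vax2os (0.938). Tbx3 was most like Phf21a (0.947), Vax1 like Pid1 (0.964), Vax2 like Jam3 (0.940), Efnb1 like Pcdh20 (0.923), Ephb3 like Ptprg (0.962) and Tbx5 like Baiap3 (0.882).

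Other genes of the axis did not form a single pattern with the members. Of 4 other dorsal genes, 0 were called on rod priming, with a median log2 fold change of 0.98 and sums of 126 to 178 CPM rod primed and 63.0 to 103 CPM untreated, and over days 5 to 35 Bmp4, a dorsal BMP ligand (0.80), and Aldh1a1, the dorsal retinoic acid synthesis enzyme (1.76, edgeR adjusted p = 1.78e-05), were higher in cone and Nr2f2 was lower (-0.69). Aldh1a1 thus stood higher in the condition where Tbx2 and Tbx3 stood lower. It reached 592 ± 271 CPM in cone and 105 ± 33.5 CPM in rod at day 35 (SD, n = 3). The median over the 4 was 0.48.

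Of 6 other ventral genes, Pax2, an optic stalk factor (3.27, edgeR adjusted p = 0.000158), and Nr2f1 (0.77, 0.0142) rose on rod priming, 2 of 6 with a median of 0.82. Both were lower in cone over days 5 to 35 (-0.67 for Pax2 and -0.70 for Nr2f1), and the median over the 6 was 0.26. Pax2 was lower in cone at days 0 and 5 (-3.61 and -2.67, both called) and was not called from day 12, when it averaged 139 ± 54.0 CPM in cone and 120.3 ± 34.3 CPM in rod. Its difference, like that of Efnb2, was largest at day 0 and was called as changing with day.

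Of 4 other EphB and ephrin-B genes, Ephb4 rose on rod priming (1.85, edgeR adjusted p = 5.12e-05) as Ephb2 did, and 0 of 4 were called over days 5 to 35. Of 7 other T-box genes 4 were tested, and Tbx15 and Tbx20 were higher in cone over days 5 to 35 (2.03 and 2.60), the opposite direction to Tbx2 and Tbx3. Of 10 genes of the nasotemporal axis, at right angles to the dorsoventral, Epha7 rose (1.06) and Epha4 fell by 0.64 (log2) on rod priming. Over days 5 to 35 they gave 2 calls higher in cone (Epha4 and Efna3) and 4 lower, among them Foxd1, a temporal retina factor (-1.87), with a median of -0.23.

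**Figure D4:**
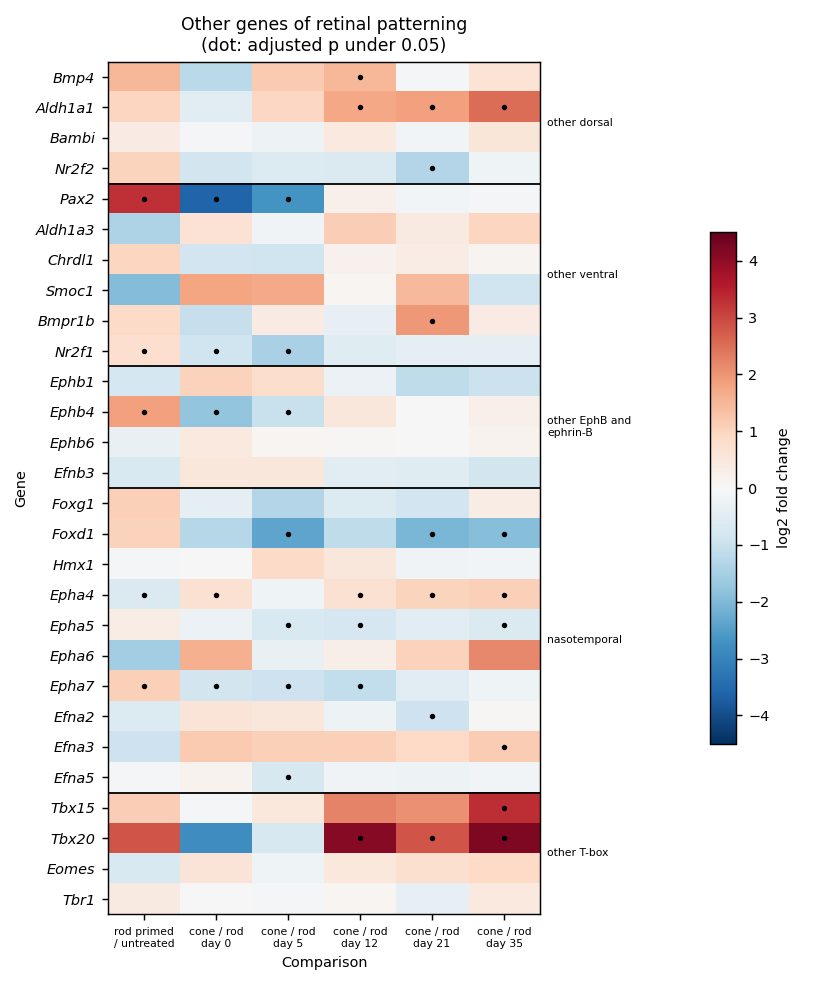
Log2 fold change (colour, red higher in the group named first) of the other patterning genes that were tested (y axis, by list) for rod primed over untreated cells and cone over rod at days 0 to 35 (x axis); dots mark an adjusted p under 0.05. Pax2, Nr2f1 and Ephb4 are red with a dot on rod priming and blue with a dot for cone over rod at days 0 and 5 (the day 0 column shares the rod primed libraries with the first), and Aldh1a1 and Tbx20 are red with a dot from day 12.

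Markers of other cell types moved with the conditions, and their part in the members' differences was not tested. The 8 mesenchyme markers summed to 419.7 to 541 CPM in cone and 33.9 to 84.4 CPM in rod at day 12, to 608 to 901 CPM and 204 to 430.1 CPM at day 21 and to 699.6 to 4084 CPM and 307 to 839 CPM at day 35, where the ranges overlapped, and 6 of the 8 were called higher in cone over days 5 to 35 and 1 lower. The 10 retinal progenitor markers gave 6 calls lower and 1 higher in cone over the same days, in the direction of Tbx2 and Ephb2. On rod priming, which raised Tbx2, Efnb1, Efnb2 and Ephb2, 5 of the 6 Müller glia markers and 4 of the 10 progenitor markers rose and 2 of those 10 fell.

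Ephrin-B and EphB genes are also known in blood vessels and retinal ganglion cells, and the part of these cells in the members' values was not tested. Of 5 endothelium markers 2 were tested, Pecam1 and Kdr, and both were called higher in cone over days 5 to 35 (median log2 fold change 0.76). Kdr, which retinal progenitors also express, stood at 40.7 to 374 CPM and Pecam1 at 0 to 4.18 CPM. Cdh5 had at most 8 counts in any library and was at 0 in every untreated, rod primed and day 5 library. The 6 retinal ganglion cell markers summed to 92.6 to 262 CPM in cone primed cells and 29.0 to 33.2 CPM at day 35 in cone, and to 40.8 to 94.7 CPM in rod primed cells and 63.7 to 93.7 CPM at day 35 in rod. Against primed cells at day 35, 57.7% of all genes were called in cone and 55.6% in rod, so a call of a marker there was common. Of the 6 ganglion cell markers, 5 were called lower in each condition, and Rbpms was called higher in rod. The 5 astrocyte and optic stalk markers summed to 3.33 to 14.7 CPM at day 0 and to 246 to 409 CPM at day 35, and all 5 were called higher in both conditions. The astrocyte and optic stalk sums and the Müller glia sums were higher at day 35 than in primed cells in both conditions. So were Efnb2 in cone, Ephb3 in both conditions and Tbx3 in rod. The rise was not steady in all of them. In cone the astrocyte and optic stalk sums stood at 403 to 650 CPM at day 21 and 246 to 388 CPM at day 35. In cone Tbx3 fell, and a link of these sums to the members was not tested. Microglia markers were higher in cone over days 5 to 35 (all 4 tested of 5), at sums of 0 to 58.3 CPM.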

How the data were processed

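Total RNA was sequenced in 33 libraries, 3 in each of 11 groups taken from the sample titles. Per the labels' protocols, RNA was extracted and libraries were made with Takara low-input kits. The submitters' processing notes name HISAT2, StringTie, HTSeq and GRCm38 without versions, roles or a strand setting. The deposited raw counts per gene (26.9% to 34.9% of counted reads fell in genes) were used as deposited, without the summary lines, and symbols came from the deposited abundance tables. The TPM in those tables, made by the authors, served only as an alternative, as log2(TPM + 1) in limma.

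Counts were scaled by TMM and tested with edgeR 4.0.16 (R 4.3.3; quasi-likelihood F test, filterByExpr with a minimum count of 10, all 33 libraries in 1 model), with Benjamini-Hochberg adjustment over 18150 genes in each of 17 comparisons and calls at an adjusted p under 0.05. Fold ratios are of mean CPM, fitted changes are log2, and SEs were derived from the F statistic. Of 47310 genes found in GENCODE M21, 40819 had the same position, the members included. The biological coefficient of variation was 0.213. The test was checked on simulated counts with 200 genes changed in cone over rod at day 5. It recovered 56% of 2-fold and 96% of 4-fold changes, with 7 false calls. The simulated counts followed the fitted trend of spread with level, without added scatter of single genes or an outlying library. These rates need not hold for scattered members such as Tbx5. Alternatives were DESeq2 1.42.0, limma 3.58.1 (voom with quality weights), RLE scaling, other filters, a replicate block, fits of only the libraries compared and each library left out. All members are named, and other genes come from 5 pathway lists, 10 marker lists and the 3 genes most like each member, of which 1 or more are named (mean log2 CPM of at least 1; Gm and Rik names were passed over; 1 gene of that rule is not reported here). The members and lists were chosen with earlier results of these data known.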

Additional observations from a re-analysis of the deposited data

Results flagged for a closer look

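The difference between cone and rod conditions changed with day for 2 of the 9 members, by a test of that change itself over days 0, 5, 12, 21 and 35 that called 9.22% of all genes. For Tbx3 the edgeR adjusted p was 0.000323, with a cone over rod log2 fold change of 0.56 at day 0 and -1.60 at day 35. For Efnb2 it was 0.00285, with -1.93 at day 0 and -0.23 at day 35. The Tbx3 call was lost without replicate 3 (0.160), the Efnb2 call without replicate 1 (0.0567) or replicate 3 (0.163), and both on log2(TPM + 1) with limma (0.501 for Tbx3 and 0.912 for Efnb2).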

How the results depend on the processing

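Over the alternatives that kept all libraries, 1073 of 1217 values of single members kept their direction and side of the threshold, 50 lost a call and 54 gained one. Tests on log2(TPM + 1) called far fewer genes of any kind (1.55% of all genes for cone over rod averaged over days). With TPM the members called were 1 at days 0, 5, 12 and 21 and 0 at day 35 for cone over rod, 5 for the average (Tbx2, Tbx3, Vax1, Efnb2 and Ephb2) and 0 for the change with day. With TPM they were 0 for rod primed over untreated, 1, 0, 1 and 0 at days 5, 12, 21 and 35 over cone primed, and 2, 0 and 0 at days 5, 12 and 35 over rod primed. The value that reversed was Vax2 at day 5 over rod primed, at 1.49 on TPM (limma adjusted p = 0.0138) against -0.39 on counts; the cause was not tested.

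The share of all genes called by the same fit is in brackets. Voom with quality weights called 6 members for cone over rod at day 0 (17.6%), 4 for the change with day (26.2%), 1 at day 5 over cone primed (32.4%), and 1 (27.0%), 6 (61.6%) and 5 (62.3%) at days 5, 12 and 21 over rod primed. Fits of only the libraries compared called 5 at day 0 (14.6%) and 2 at day 12 (2.27%) for cone over rod, 7 at day 21 over cone primed (52.0%), and 1 at days 5 (26.1%) and 12 (36.8%) over rod primed. DESeq2 (24.6%) and the filter of a mean of at least 1 CPM (26.8%) each called 1 at day 5 over cone primed.

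Leaving out 1 library or replicate number, counts ran from 3 to 5 at day 21 and from 5 to 8 for the average of cone over rod, from 0 to 3 for the change with day, from 0 to 1, 1 to 3 and 2 to 4 at days 5, 12 and 21 over cone primed, and from 1 to 4 at day 12 over rod primed. In no comparison did all libraries with the same replicate number deviate together (every pair over 0.1 in 0 of 15 comparisons, each library closest to its own number in 0 of 15). Single pairs ranged from r of -0.226 to 0.513, the highest for replicate 2 of cone and rod day 12. The check speaks only of whole comparisons and not of single pairs. A replicate block ended the day 21 call of Tbx5 (0.0571) and added Vax1 for rod primed over untreated (0.0342) and for day 21 over cone primed (0.0466), giving 5 calls in each of those 3 comparisons, and changed no other call. Depth limits Vax1, at 0 to 61 counts a library.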
